A study of Mus musculus with 8 samples.

Results

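The synaptic vesicle release machinery was followed through 9 genes, Rims1, Cplx1, Cplx2, Snap25, Syt1, Stx1a, Vamp2, Syn1 and Syn2, in the hypothalamus of Bgn_KO and WT mice. Their probes were taken by the gene symbol in the platform annotation, which gives 11 probes among the 25697 on the array, or 9 of 16593 gene symbols. Rims1 and Syn1 have 2 probes each and the other genes 1. RNA came from male mice aged 13 weeks with a C57BL/6 background per the labels, 4 Bgn_KO, in which the gene of the matrix proteoglycan biglycan is disrupted, and 4 WT, with 1 single-colour Illumina array for each labelled sample. The sources used here do not describe the Bgn_KO allele. All mice had free access to the same rodent diet and to water, and no treatment is named.

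Neurotransmitter is released when a vesicle docked at the active zone fuses with the presynaptic membrane. RIM proteins such as RIM1, the product of Rims1, hold vesicles and calcium channels together at that site. Fusion is driven by the SNARE complex, built from syntaxin (Stx1a) and SNAP-25 (Snap25) on the plasma membrane and synaptobrevin (Vamp2) on the vesicle. Complexins (Cplx1, Cplx2) bind the assembled SNARE complex, synaptotagmin (Syt1) senses the calcium that triggers fusion, and synapsins (Syn1, Syn2) tether the reserve of vesicles. Hypothalamic neurons use the same proteins at fast synapses. In bulk tissue such as this, fewer neurons and less transcript per neuron cannot be told apart.

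The promoters of Syn1, Stx1a and Cplx2 are shown because Cplx2 and Stx1a departed most from the other arrays on 1 array, described below, and Syn1 by much less. Each window is the 250 bases before the annotated gene start in the RefSeq table of GRCm38.p6, 5′ to 3′ on the gene's strand. Capitals mark exact matches, on either strand, to a palindromic cAMP response element (TGACGTCA), a GC box (GGGCGG) or the left part of the RE1 element (TTCAGCACC), to which the neuronal repressor REST binds. No 2 of these matches overlap in the 3 windows.
Syn1, chrX:20920919-20921168, minus strand: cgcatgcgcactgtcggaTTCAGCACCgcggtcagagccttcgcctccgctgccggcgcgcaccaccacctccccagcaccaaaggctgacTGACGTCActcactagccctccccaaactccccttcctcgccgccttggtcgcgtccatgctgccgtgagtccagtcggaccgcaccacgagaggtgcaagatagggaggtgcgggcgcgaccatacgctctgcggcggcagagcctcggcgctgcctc
Stx1a, chr5:135023232-135023481, plus strand: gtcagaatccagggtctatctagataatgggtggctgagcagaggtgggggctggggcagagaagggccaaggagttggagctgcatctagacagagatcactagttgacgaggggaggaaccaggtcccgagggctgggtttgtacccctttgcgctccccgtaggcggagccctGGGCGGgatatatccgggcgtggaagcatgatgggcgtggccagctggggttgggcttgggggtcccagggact
Cplx2, chr13:54302306-54302555, plus strand: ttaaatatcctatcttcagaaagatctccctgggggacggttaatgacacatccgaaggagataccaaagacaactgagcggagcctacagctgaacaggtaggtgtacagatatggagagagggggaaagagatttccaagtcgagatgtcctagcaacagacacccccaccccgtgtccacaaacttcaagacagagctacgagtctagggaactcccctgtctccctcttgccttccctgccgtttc
The Syn1 window held 1 cAMP response element and 1 left RE1 part, the Stx1a window 1 GC box and the Cplx2 window none of the 3 motifs. Over all 32851 promoter windows of that table, 1.55% held the cAMP response element, 32.7% a GC box and 0.301% the left RE1 part. Of the 7 genes with a window there (all but Snap25 and Vamp2), 1 held the cAMP response element, 5 a GC box and 1 the left RE1 part. A gene was counted if any of its windows held the motif, and Syt1 and Syn2 have more than 1 window. The shares over all windows are per window, so the 2 are not alike. The matches are of letters only, and no binding was measured.

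Values below are normalized log2 signals, and differences are Bgn_KO minus WT on the log2 scale. The arrays differed little in overall signal, with medians of the deposited signal from 179.9 to 213.0 on Bgn_KO arrays and from 195.1 to 225.0 on WT arrays, and between 13820 and 14502 probes above background (detection p under 0.05). Of 17 markers fixed for hypothalamic neurons 12 were measured, among them Pmch, Oxt and Avp, while probes of Otp, Sim1, Six6 and Nr5a1 were above background on 0 arrays. Bgn, the disrupted gene, had 8.94, 9.01, 8.99 and 8.79 on the Bgn_KO arrays, against 8.86, 10.44, 10.14 and 9.53 on the WT arrays. The array labelled WT replicate 1 therefore lay inside the Bgn_KO range, against its label, and every direction below that uses it rests on that label. Whether the probe lies in the disrupted part of the gene is not stated, so it may check nothing. The Bgn difference was -0.81 (limma adjusted p = 0.390).

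Of the 11 probes, 9 were above background on all 8 arrays and were tested, so the filter on dim probes did not select them by group. These 9 cover 8 of the genes. The Snap25 probe was above background on 0 arrays, with detection p-values between 0.362 and 0.896, so the data do not bear on the level of this SNARE. The second Rims1 probe, ILMN_3058780, was above background on 0 Bgn_KO arrays and 1 WT array, the one labelled WT replicate 1 (5.24), and was not tested either. It is annotated to a different RefSeq transcript of Rims1 than the measured probe.

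All 9 tested probes had a higher mean on the Bgn_KO arrays, and 0 of 9 passed an adjusted p of 0.05 in limma. Of all 14190 tested probes 0.507% passed (72) and 52.8% had a difference above 0. Unadjusted, 3 of the 9 probes had p under 0.05 (Rims1, Cplx2 and Syn2), all higher in Bgn_KO, where 10.2% of all tested probes did in either direction and 5.21% as higher. With 1 probe per gene, that with the higher signal, the median difference of the 8 genes was 0.25, beside 0.01 over all tested probes. On 0 of 9 probes were the 4 Bgn_KO arrays clear of the 4 WT arrays, which was so for 6.15% of all tested probes. The genes were chosen with earlier results of these data known, so these comparisons with all tested probes are descriptions only.

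**Figure D1:**
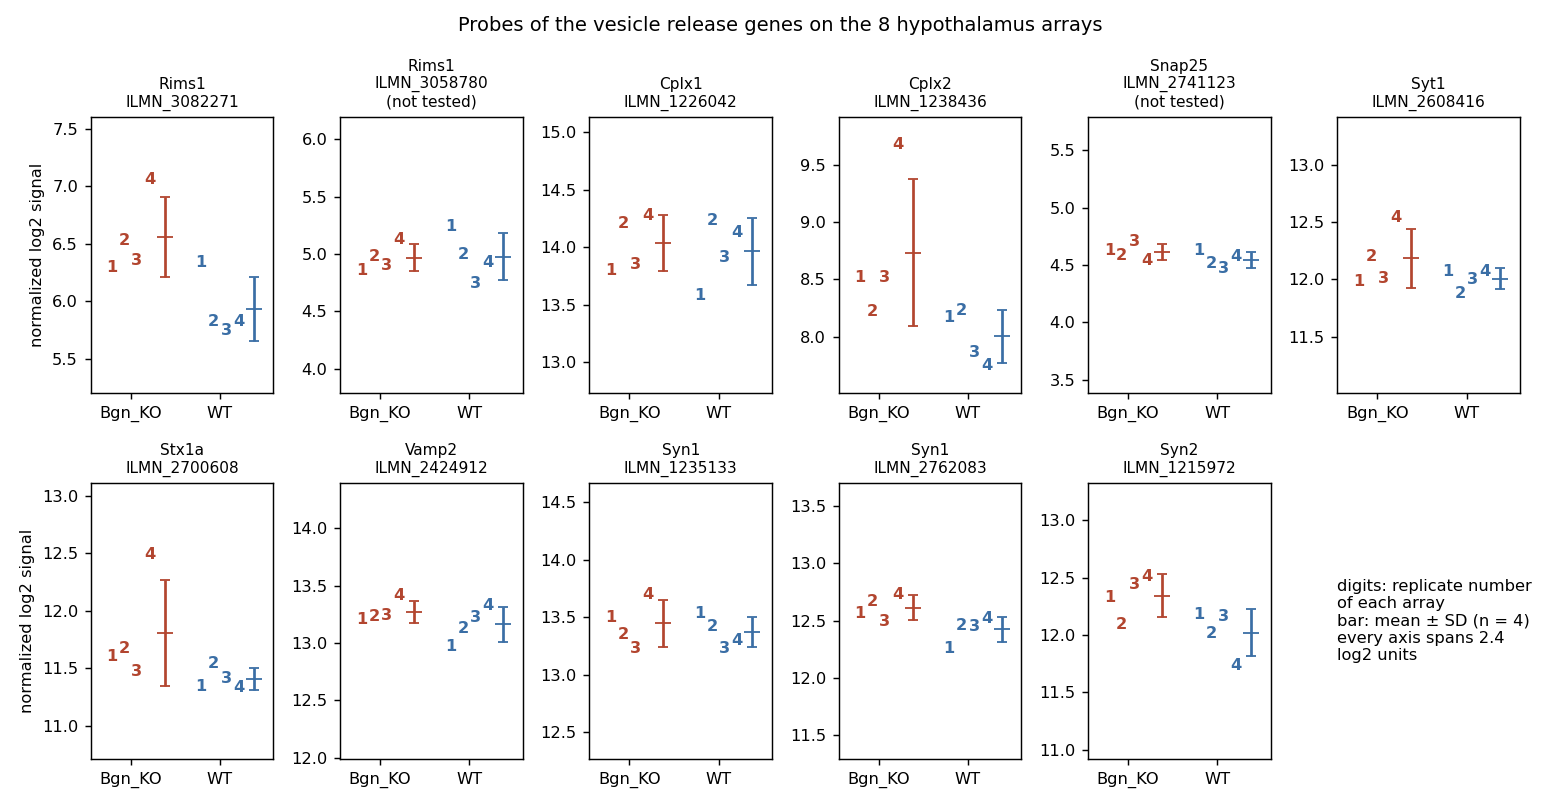
Normalized log2 signal (vertical axes, each spanning the same number of log2 units) of the 11 probes on the Bgn_KO arrays (left, red) and the WT arrays (right, blue). Digits are replicate numbers and bars are mean ± SD (n = 4); Bgn_KO replicate 4 is the highest array in all 9 tested probes, most clearly for Cplx2 (9.67) and Stx1a (12.49).

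At the active zone, the measured Rims1 probe (ILMN_3082271) had 6.29, 6.53, 6.35 and 7.06 on the Bgn_KO arrays, against 6.34, 5.82, 5.74 and 5.82 on the WT arrays. The groups overlapped only through the array labelled WT replicate 1, which stood above the other WT arrays and above Bgn_KO replicate 1. The difference was 0.63 (SE 0.19, 95% interval 0.19 to 1.07) with a limma adjusted p of 0.288. When the array labelled WT replicate 1 was set aside it was 0.76 (limma adjusted p = 0.173), and the remaining arrays did not overlap, as 11.8% of all tested probes did not. Rims1 was dim, with a deposited signal between 204.6 and 302.2 on the Bgn_KO arrays and between 198.9 and 261.0 on the WT arrays, close to the median of all probes. The size of the difference changed with the background step: it was 0.21 in the log2 signal without background correction and also 0.21 in the authors' processed values.

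Among the SNAREs, Stx1a, which encodes syntaxin-1A, had 11.60, 11.67, 11.47 and 12.49 on the Bgn_KO arrays, against 11.34, 11.54, 11.41 and 11.33 on the WT arrays. Bgn_KO replicate 4 was far above every other array. Of the other Bgn_KO arrays, replicates 1 and 2 lay just above the WT range and replicate 3 within it. The difference was 0.40 (SE 0.20, limma adjusted p = 0.554) with all arrays and 0.18 without Bgn_KO replicate 4 (limma adjusted p = 0.547). Vamp2, the vesicle SNARE, had 13.20, 13.23, 13.24 and 13.41 on the Bgn_KO arrays, against 12.97, 13.13, 13.22 and 13.33 on the WT arrays. Its groups overlapped widely, and the difference was 0.11 (95% interval -0.12 to 0.34, limma adjusted p = 0.774). It was 0.06 without Bgn_KO replicate 4, 0.04 when the array labelled WT replicate 1 was set aside and -0.0045 without both.

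The complexin genes, whose products have the same role at the SNARE complex, differed in their pattern over the arrays. Cplx2 had 8.52, 8.22, 8.52 and 9.67 on the Bgn_KO arrays, against 8.17, 8.23, 7.86 and 7.75 on the WT arrays. The lowest Bgn_KO array, replicate 2, was level with WT replicate 2, and Bgn_KO replicate 4 was above all others by more than the range of the WT arrays. In the deposited signal this array had 1051.2, against 372.5 to 521.9 on the WT arrays. The difference was 0.73 (SE 0.28, 95% interval 0.08 to 1.37, a fold of 1.65) with a limma adjusted p of 0.428. Without background correction it was 0.51, as it was in the authors' processed values. It was 0.41 without Bgn_KO replicate 4 (limma adjusted p = 0.350), and the SD of the Bgn_KO arrays was 0.17 (n = 3) without it and 0.64 (n = 4) with it.

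Cplx1 had 13.80, 14.21, 13.85 and 14.28 on the Bgn_KO arrays, against 13.58, 14.23, 13.91 and 14.13 on the WT arrays. The groups lay over each other, with a difference of 0.07 (95% interval -0.31 to 0.45, limma adjusted p = 0.924). The sign turned without Bgn_KO replicate 4 (-0.01). It also turned when the array labelled WT replicate 1, the lowest of the 8, was set aside (-0.06). Whether the difference of Cplx2 and that of Cplx1 are unlike was not tested.

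Syt1, the calcium sensor, had 11.98, 12.20, 12.01 and 12.54 on the Bgn_KO arrays, against 12.07, 11.88, 12.00 and 12.07 on the WT arrays. Only Bgn_KO replicates 2 and 4 were above the WT range. The difference was 0.18 (SE 0.13, limma adjusted p = 0.688), and 0.06 without Bgn_KO replicate 4 (limma adjusted p = 0.863).

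Both synapsin genes were measured. Syn2 had 12.33, 12.09, 12.44 and 12.51 on the Bgn_KO arrays, against 12.18, 12.01, 12.16 and 11.73 on the WT arrays. Bgn_KO replicate 2 lay within the WT range and the other 3 Bgn_KO arrays above it, while WT replicate 4 was the lowest. The difference was 0.32 (SE 0.13, 95% interval 0.02 to 0.62, limma adjusted p = 0.469), and 0.26 without Bgn_KO replicate 4 (limma adjusted p = 0.533). Without both replicates 4 it was 0.16 (limma adjusted p = 0.756).

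The brighter Syn1 probe, ILMN_1235133, had 13.50, 13.35, 13.23 and 13.70 on the Bgn_KO arrays, against 13.53, 13.42, 13.23 and 13.30 on the WT arrays. The second, ILMN_2762083, had 12.56, 12.67, 12.49 and 12.73 on the Bgn_KO arrays, against 12.26, 12.46, 12.45 and 12.52 on the WT arrays. Both are annotated to the same transcript, and they order the arrays differently: the array labelled WT replicate 1 was second highest by the first probe and lowest by the second. Their differences were 0.07 (SE 0.12, limma adjusted p = 0.883) and 0.19 (SE 0.10, limma adjusted p = 0.552). The gap between these 2 differences, 0.11, was not beyond the spread of the arrays (two-sided exact permutation p = 0.429). For the brighter probe the sign turned without Bgn_KO replicate 4 (-0.01).

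**Figure D2:**
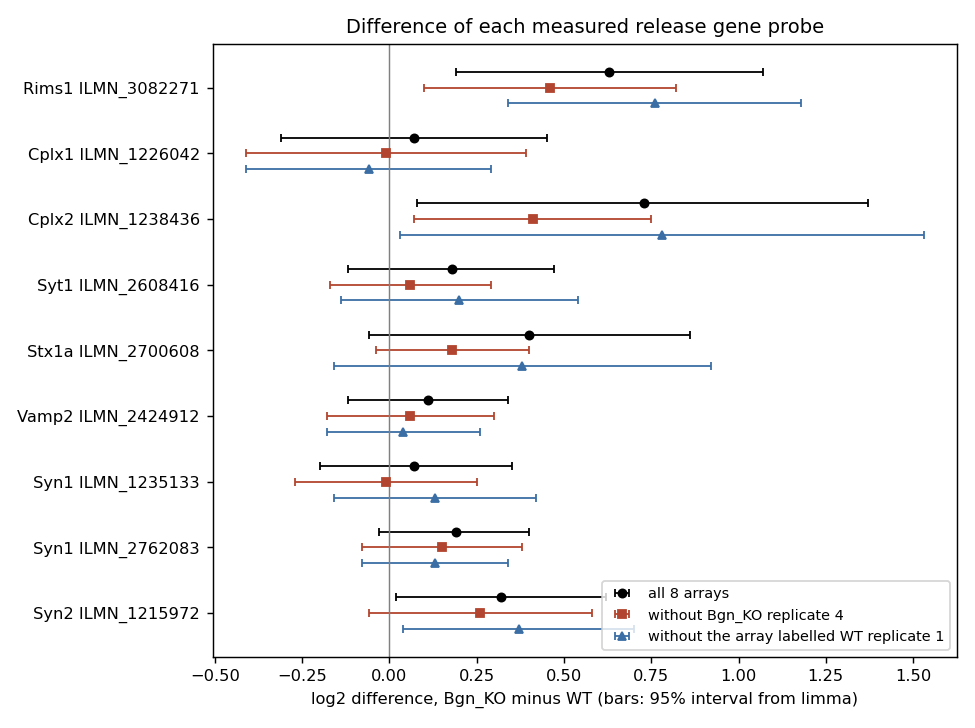
Log2 difference, Bgn_KO minus WT (horizontal axis), with its 95% interval for each of the 9 tested probes (vertical axis). Black circles use all 8 arrays, red squares leave out Bgn_KO replicate 4 and blue triangles leave out the array labelled WT replicate 1. The difference of Cplx2 is 0.41 as a red square and 0.73 as a black circle, and that of Stx1a 0.18 and 0.40.

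One array stood out across these genes. Bgn_KO replicate 4 had the highest signal of the 8 arrays for 9 of 9 tested probes, where it was the highest for 13.5% of all tested probes. Over 1 probe per gene its mean deviation from the 8-array mean was 0.57, against 0.00 to 0.05 on the other 3 Bgn_KO arrays and -0.21 to -0.11 on the WT arrays. It exceeded the mean of the other 7 arrays by 1.49 for Cplx2, 1.01 for Stx1a, 0.94 for Rims1 and 0.51 for Syt1, but by 0.22 for Vamp2 and 0.32 for Cplx1. Without it the median difference of the 8 genes was 0.12, with 6 of 8 above 0, beside 0.02 and 53.5% over all tested probes. None of the 9 probes passed 0.05 in limma then, as 0.536% of all did, and 2 had an unadjusted p under 0.05, as 11.3% of all did. When the array labelled WT replicate 1 was set aside, the median was 0.29 with 7 of 8 above 0, and again 0 of 9 passed in limma (3 with an unadjusted p under 0.05), beside 0.366% of all. In that setting 53% of all tested probes had a difference above 0 and 11.8% an unadjusted p under 0.05, with a median of 0.01.

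The mean signals of the cortical and hippocampal markers and of the striatal markers were also highest on Bgn_KO replicate 4. Of 13 markers fixed for cortical and hippocampal neurons 8 were on the array and 5 measured: Tbr1, Nrgn, Camk2a, Slc17a7 and Fezf2. Their mean log2 signal was 10.20 on Bgn_KO replicate 4, against 7.63 to 8.22 on the other Bgn_KO arrays and 8.07 to 8.38 on the WT arrays. Of the 5, 3 had a higher mean in Bgn_KO (median difference 0.34), and without that array 2 did (median -0.19). The log2 of their summed signal ranged from 11.32 to 13.60 on the Bgn_KO arrays and from 11.73 to 12.01 on the WT arrays. Nrgn, a calmodulin-binding protein abundant in forebrain neurons, had 12.20 on Bgn_KO replicate 4, against 9.80 to 10.01 on the other Bgn_KO arrays. Slc17a7, the vesicular glutamate transporter of cortical neurons, had 11.55 there, while on the other Bgn_KO arrays it ranged from 4.97 to 8.40. Of the markers that were not measured, Neurod1 and Neurod6 were above background on 0 arrays. Neurod2 was above background on 1 array, Bgn_KO replicate 4 (6.75), against 4.98 to 5.06 on the other Bgn_KO arrays and 4.71 to 5.21 on the WT arrays. The 4 measured striatal markers also had their highest mean on Bgn_KO replicate 4, at 9.13, against 8.49 to 8.72 on the other Bgn_KO arrays and 8.61 to 8.83 on the WT arrays. Of these 4, 3 had a higher mean in Bgn_KO (median difference 0.07), and 1 did without that array (median -0.11). Ppp1r1b (10.94) and Drd1 (7.21) had their highest signal on Bgn_KO replicate 4. Rgs9 (10.61) and Drd2 (7.77) did not, with 10.96 on Bgn_KO replicate 3 and 8.34 on WT replicate 2. The mean of the 12 hypothalamic markers was lowest on Bgn_KO replicate 4, at 11.39. It was 11.64 to 11.86 on the other Bgn_KO arrays and 11.61 to 11.89 on the WT arrays. Within this list Npy was highest on Bgn_KO replicate 4 (11.60), Hcrt (12.89) and Six3 (4.99) were not lowest there, and the others were. Of the 12, 2 had a higher mean in Bgn_KO (median difference -0.06), and 6 did without Bgn_KO replicate 4 (median 0.04). The mean of the 11 general neuronal markers was 11.54 on that array. This lay inside the range of 11.42 to 11.70 on the other Bgn_KO arrays and of 11.43 to 11.58 on the WT arrays. Of these markers Rbfox3 (13.10) and Elavl3 (10.36) were highest on that array, Gap43 (12.63) and Uchl1 (13.16) lowest, and the rest in between. Of the 11, 5 had a higher mean in Bgn_KO (median difference -0.01), and 6 did without that array (median 0.04). Beside the probes used for these markers, other tested probes gave differences of 0.42 and 0.46 for Map2, and 0.21 and -0.18 for Elavl4. Their limma adjusted p lay between 0.149 and 0.661. The part of these marker lists in the release gene values was not tested. With Bgn_KO replicate 4 left out, the differences of Rims1 and Cplx2 were 0.46 and 0.41 (limma adjusted p = 0.329 and 0.350). Those of the other tested probes were smaller. They were 0.26 for Syn2, 0.18 for Stx1a, 0.06 for Syt1 and for Vamp2, and -0.01 for Cplx1. The Syn1 probes gave -0.01 (the brighter) and 0.15.

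No glial marker passed 0.05 in limma, though most had a lower mean in Bgn_KO. Of 10 oligodendrocyte markers 9 had a lower mean in Bgn_KO (median -0.42, 7 with an unadjusted p under 0.05 and 0 past 0.05 adjusted in limma), and their mean was 11.57 to 11.80 on the Bgn_KO arrays, against 11.83 to 12.19 on the WT arrays. Of 10 microglial markers 9 were lower (median -0.27, 4 unadjusted and 0 adjusted), as were 6 of 9 astrocyte markers (median -0.06). Of all 14190 tested probes 6699 had a lower mean in Bgn_KO. In either direction 10.2% of them had an unadjusted p under 0.05 in limma and 0.507% passed adjusted. The part of glial cells in the release gene values was not tested.

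**Figure D3:**
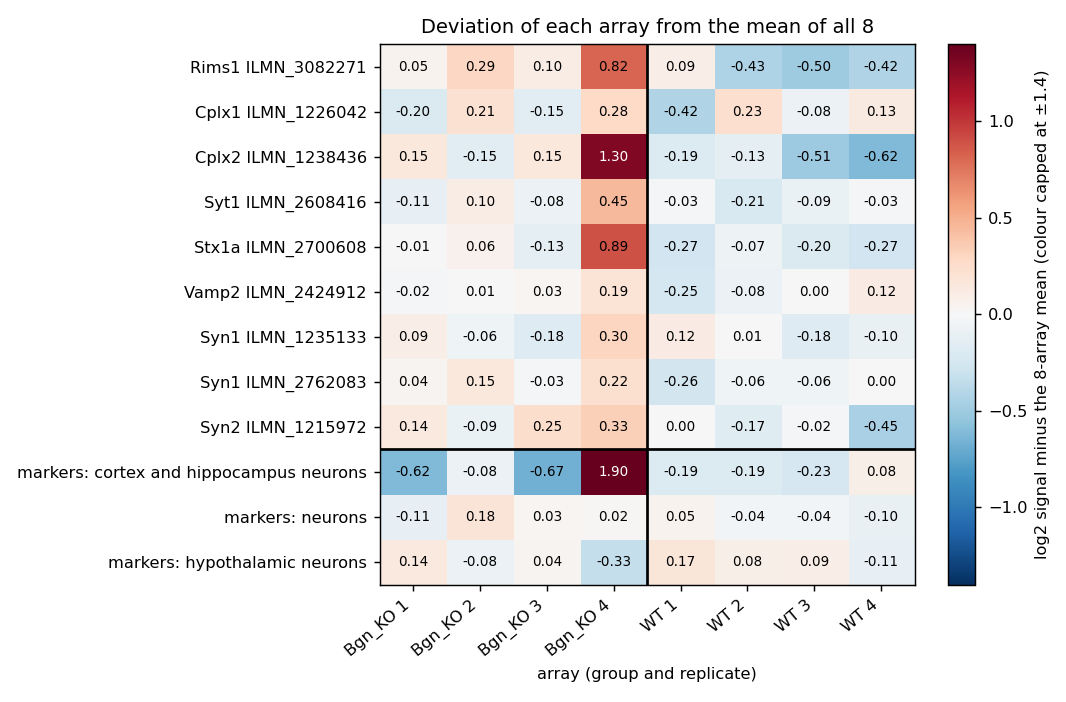
Log2 signal of each array (columns, Bgn_KO left of WT) minus the mean of all 8, for the 9 tested probes and, below the line, the mean of 3 marker lists (rows). Red is above and blue below the mean; Bgn_KO replicate 4 is above it in every probe and by 1.90 in the cortical and hippocampal markers, while the general neuronal markers are at 0.02.

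The genes varied together less when Bgn_KO replicate 4 was left out. Over the 8 arrays, Pearson's r between pairs of the 8 genes had a median of 0.60 and was above 0 for 27 of 28 pairs, with the highest value for Cplx2 and Stx1a (0.93) and the lowest for Cplx1 and Syn2 (-0.21). Without Bgn_KO replicate 4 the median was 0.12, and 17 of 28 pairs were above 0. Over these 7 arrays r was 0.80 for Cplx2 and Syn2, 0.67 for Rims1 and Cplx2, and -0.70 for Vamp2 and Syn1. The points of each pair share the RNA samples and the normalization, and r is given as a description.

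The probes of other genes most like the mean pattern of the 8 genes over the 8 arrays were those of Acap3 (r = 0.975), Nuak1 (0.971), Arel1 (0.969), Spata2l (0.966) and Ypel1 (0.966). Bgn_KO replicate 4 exceeded the other 7 arrays by 0.49 to 1.52 in these 5 probes. Without that array their r was lower, from 0.71 (Nuak1) to 0.84 (Arel1). For Rims1 alone the closest were Dlgap2, a scaffold protein of the postsynaptic density (r = 0.988, and 0.99 without Bgn_KO replicate 4), Klf6 (0.965) and Rtl6 (0.956). For Cplx2 they were Fbxo34 (0.981), the immediate early gene Egr4 (0.980) and the plasma membrane calcium pump gene Atp2b3 (0.972). Without Bgn_KO replicate 4, r was 0.92 for Klf6, 0.98 for Rtl6, 0.92 for Fbxo34, 0.90 for Egr4 and 0.86 for Atp2b3. None of these 11 probes passed 0.05 in limma.

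Other genes of the release pathway were read from a list of 83, of which 70 had a probe and 55 a measured one. Of the 55, 0 passed 0.05 as higher in Bgn_KO and 1 as lower, against 0.226% and 0.282% of all tested probes. The median difference was 0.04, with 38 of 55 above 0, beside 0.01 and 52.8% over all tested probes. Of the 55, 3 had an unadjusted p under 0.05 in limma, where 10.2% of all tested probes did. By role, 5 of 9 SNARE partners and disassembly factors had a difference above 0 (median 0.03), 8 of 13 calcium sensors and priming factors (0.01), 12 of 13 active zone and docking genes (0.12), 9 of 14 vesicle proteins and transporters (0.04) and 4 of 6 genes of vesicle retrieval (0.08). Without Bgn_KO replicate 4, 33 of 55 were above 0, and 9 of 13 in the active zone group (median 0.06), beside 53.5% of all tested probes.

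The gene that passed was Rab3b, a small GTPase of the Rab3 family that sits on secretory vesicles. Rab3b had 9.27, 9.21, 9.33 and 9.07 on the Bgn_KO arrays, against 9.94, 9.89, 10.04 and 9.78 on the WT arrays. Every Bgn_KO array was below every WT array, the one labelled WT replicate 1 among them, and Rab3b fell by 0.69 (SE 0.09, limma adjusted p = 0.013). The call was lost without Bgn_KO replicate 2 (-0.69, limma adjusted p = 0.0531), without WT replicate 3 (-0.65, limma adjusted p = 0.0571), without both replicates 4 (-0.69, limma adjusted p = 0.0532) and with Bgn_KO replicate 4 and the array labelled WT replicate 1 both set aside (-0.63, limma adjusted p = 0.0619). The related Rab3a and Rab3d had differences of 0.08 and 0.12 (limma adjusted p = 0.808 and 0.834).

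**Figure D4:**
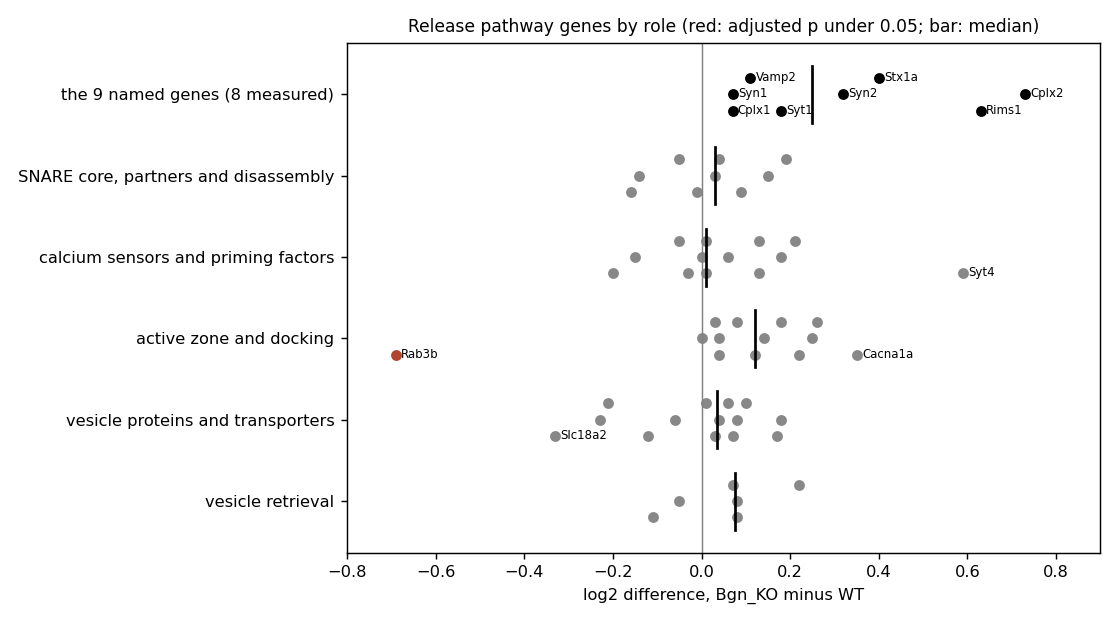
Log2 difference, Bgn_KO minus WT (horizontal axis), of each measured gene of the release machinery (1 probe per gene, points) by role (rows), with the median of each row as a bar. The top row holds the named genes, in black, all above 0; Rab3b (-0.69), in red, is the only point with a limma adjusted p under 0.05.

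None of the remaining 54 genes passed, by the probe with the highest signal of each gene or by any other tested probe. With 1 probe per gene, Syt4, a synaptotagmin of dense core vesicles, had the next smallest p. It had 13.17, 12.57, 13.13 and 13.27 on the Bgn_KO arrays, against 12.17, 12.56, 12.52 and 12.51 on the WT arrays. Bgn_KO replicate 2 was level with WT replicate 2, and the difference was 0.59 (SE 0.16, limma adjusted p = 0.225). Doc2a, another calcium sensor, differed by 0.21, the priming factor gene Unc13b by 0.26, the vesicle glycoprotein gene Sv2a by -0.23 and the vesicle chaperone gene Dnajc5 by 0.18, with limma adjusted p between 0.430 and 0.586. Among SNARE partners Napg, which helps take SNARE complexes apart, differed by 0.15 and Vamp3 by -0.16, and among retrieval genes dynamin 1 (Dnm1) by 0.22 and endophilin A1 (Sh3gl2) by 0.08 (limma adjusted p between 0.592 and 0.819).

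These values are of 1 probe per gene, and other tested probes of the same genes gave other values. The clathrin adaptor gene Snap91 has 2 tested probes. The probe ILMN_2597032 had 8.12, 7.87, 7.93 and 7.80 on the Bgn_KO arrays, against 7.68, 7.26, 7.49 and 7.42 on the WT arrays, which do not overlap. That difference was 0.47 (limma adjusted p = 0.159, below that of Syt4), while the other Snap91 probe gave -0.11 (limma adjusted p = 0.828). The second Dnm1 probe gave -0.04, where the first gave 0.22. The other Sh3gl2 probes gave 0.24 and 0.23 (limma adjusted p = 0.491 for each). The second Sv2a probe gave -0.29 (limma adjusted p = 0.288) and the second Vamp3 probe -0.09. Bin1 gave -0.05 by the probe used, and -0.60 and 0.18 by the others (limma adjusted p = 0.367 and 0.777). Amph gave 0.07 by the probe used, and -0.40 and -0.01 by the others (limma adjusted p = 0.481 and 0.988). The second probes of Scamp5 and Cadps2 gave 0.23 and 0.21, where the first gave 0.03 and 0.13.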

How the data were processed

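The authors deposited signal intensities that were not normalized, with detection p-values per probe and array, and processed intensities for which lumi 2.10.0 and R 2.15.0 are named per the submitters' processing notes. Their background handling and normalization are not given in the sources used here. Columns were matched to samples by the letters in the labels. With limma 3.58.1 in R 4.3.3, background estimated from the detection p-values was removed (normexp, offset 16), arrays were quantile normalized, and log2 values were computed from the deposited intensities. Probes with detection p under 0.05 on at least 4 arrays were tested (14190) by a linear model with moderated variances, adjusted over all of them by Benjamini-Hochberg.

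The platform table gives 23978 probes 1 symbol, 0 several and 1719 none. Named are the 9 genes, Bgn, pathway genes past 0.05, the 2 with the smallest p per role, and the 11 closest patterns. Rab3a, Rab3d, Snap91, Bin1, Amph, Scamp5, Cadps2 and markers were named after their values were seen. Members and lists were chosen with earlier results of these data known. Marker lists not described above had 0 measured members past 0.05 in limma and 0 with an unadjusted p under 0.05: 1 of 6 meningeal markers was higher in Bgn_KO (median -0.38), 0 of 4 fast skeletal muscle (-1.48) and 1 of 2 pituitary (0.05). In simulations of this comparison with 14190 probes, 30% of changes of 0.5 and 78% of changes of 1 were found. Values were drawn as independent and normal with the SD of each probe, and 200 probes taken at random were changed. The shares are averages over such probes and do not hold for each release gene. Cplx2, Stx1a and Rims1 had larger SEs than the median (0.28, 0.20 and 0.19). The number of arrays limits precision (median SE 0.13), and where nothing says that samples were taken separately, p-values measure only the spread between these samples. Alternatives were other scalings, filters and array weights, a replicate block and left-out arrays.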

Additional observations from a re-analysis of the deposited data

Results flagged for a closer look

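Of 74 groups of 4 arrays looked at, 5 held an array far from the others by Dixon's ratio, and chance gives about 5% of such groups. The Rims1 signal of the array labelled WT replicate 1 was 6.34, against 5.74 to 5.82 on the other WT arrays. On the same array Syt4 was 12.17, against 12.51 to 12.56 on the other WT arrays. Sv2a was 12.79 on WT replicate 2, against 12.71 to 12.72 on the others. The mean of the cortical and hippocampal markers was 8.38 on WT replicate 4, against 8.07 to 8.11 on the other WT arrays, and that of the fast skeletal muscle markers 13.82, against 7.64 to 8.26. The muscle markers ranged from 7.61 to 8.48 on the Bgn_KO arrays, and their part in the release gene values was not tested. Without both replicates 4, 0 of 9 release gene probes passed 0.05 in limma, and 1 had an unadjusted p under 0.05. In that setting 42 of all 14190 tested probes passed. With all 8 arrays, 10.2% of all tested probes had an unadjusted p under 0.05 in limma.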

How the results depend on the processing

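No release gene probe passed 0.05 under any of the 17 alternatives (limma adjusted p between 0.0699 and 0.518 for the lowest in each, and between 1 and 4 probes with an unadjusted p under 0.05). The lowest came from leaving out Bgn_KO replicate 4 and the array labelled WT replicate 1 together, chosen after seeing the data (Rims1, 0.60). Over all tested probes, between 26 and 116 passed in these alternatives. In the main fit 10.2% of all tested probes had an unadjusted p under 0.05 in limma. The median difference of the release genes was between 0.12 and 0.31, and that of the other pathway genes between 0.0047 and 0.12. Signs turned without Bgn_KO replicate 4 for Cplx1 (-0.01) and the brighter Syn1 probe (-0.01), without the array labelled WT replicate 1 for Cplx1 (-0.06), without both replicates 4 for that Syn1 probe (-0.03), and without Bgn_KO replicate 4 and the array labelled WT replicate 1 for Cplx1 (-0.14) and Vamp2 (-0.0045). With 1 array left out, Cplx1 ranged from -0.06 to 0.16 and the brighter Syn1 probe from -0.01 to 0.15. Rims1 was not tested with detection p under 0.01 on all arrays.

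The count of pathway genes past 0.05 was 1, between 0 and 1 with 1 array left out, and 0 without both replicates 4, without Bgn_KO replicate 4 and the array labelled WT replicate 1, or with the replicate block (Rab3b, limma adjusted p = 0.0608). The count over all probes was 72. It was 47 with the stricter detection filter, 116 with array weights, 26 with the replicate block, 42 without both replicates 4 and between 43 and 76 with 1 array left out (44 without WT replicate 3, 43 without WT replicate 4); the causes were not tested. The labels do not say that the array numbers pair samples. Same-numbered arrays had correlations of deviations between -0.19 and 0.10, and 1 of 8 arrays was closest to its own number. These values show no pairing but cannot exclude it. Arrays were left out after normalization, with the tested probes kept.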
